A study of Mus musculus with 2 samples.

Results

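Wnt4, Wnt5a, Wnt5b, Wnt6, Wnt7b, Wnt10a, Rspo1 and Rspo3 encode secreted Wnt ligands and the R-spondins that amplify their signal. These 8 genes of the 32285 in the count tables were chosen by name, as ligands through which mammary cells can signal to their neighbours, and their levels were compared between cell classes and between 2 single-cell libraries. Both libraries came from mammary glands of adult wild-type female mice, labelled as 9 to 10 weeks old. The Ctrl library came from control mice, whose strain and vehicle the sources used here give only for parallel experiments of the study, and the CL library from mice given clodronate liposomes, an agent that kills macrophages after they take it up, intraperitoneally and repeatedly before harvest. For both, live cells negative for the endothelial marker CD31 and the erythroid marker TER119 were sorted and sequenced by droplets together with immune cells. There was 1 library per group and the labels do not say how many mice each held, so no comparison has a replicate and none was tested: intervals are 95% and cover counting error only.

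Wnt proteins are lipid-modified by the acyltransferase Porcn, carried to the cell surface by Wls, and bind Frizzled receptors with the co-receptors Lrp5 and Lrp6 to stabilise beta-catenin, or bind Ror1, Ror2 and Ryk in beta-catenin-independent signalling. R-spondins bind Lgr4, Lgr5 and Lgr6 and remove the ubiquitin ligases Rnf43 and Znrf3, which would otherwise clear Frizzled receptors from the membrane. In the mammary gland, Wnt4 is a textbook progesterone target of hormone-sensing luminal cells, Rspo1 is known to cooperate with it, and basal stem cells are the best described receivers of the signal.

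On GRCm38, with the GENCODE annotation, Wnt4 (ENSMUSG00000036856) lies at chr4:137277489-137299726 on the plus strand, has 5 exons and overlaps no other annotated gene. Wnt5a (ENSMUSG00000021994) lies at chr14:28504750-28527448 and Wnt7b (ENSMUSG00000022382) at chr15:85535437-85582473. Wnt5b (ENSMUSG00000030170) spans chr6:119432531-119544347 on the minus strand and overlaps Fbxl14 on the other strand. Wnt6 (ENSMUSG00000033227, chr1:74771892-74785322) and Wnt10a (ENSMUSG00000026167, chr1:74791516-74804179) are neighbours on the plus strand, with 6193 bases between them. Rspo1 (ENSMUSG00000028871) lies at chr4:124986430-125009099 and Rspo3 (ENSMUSG00000019880) at chr10:29452416-29535867. Of the 8 genes, Wnt4 and Wnt10a overlap no annotated gene. The other 6 overlap a gene on the opposite strand, and Rspo3 also one on its own strand.

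Promoter entries of RefSeq (GRCm38.p6) matched 4 of the 8 genes, Wnt4, Wnt5b, Wnt6 and Rspo1, with 6 start sites in all. The sequences of Wnt4 and Wnt5b are shown because these genes had the highest shares of their UMIs in the hormone-responsive and the secretory-lineage luminal cells respectively, and because Wnt5b alone had 3 start sites, which counts of transcript ends do not tell apart. Each is given 5′ to 3′ on the strand of its gene. The windows lie at chr4:137277385-137277488 on the plus strand for Wnt4, where 104 bases precede the first annotated exon, and on the minus strand at chr6:119544348-119544597, chr6:119467212-119467461 and chr6:119449387-119449636 for Wnt5b.
Wnt4: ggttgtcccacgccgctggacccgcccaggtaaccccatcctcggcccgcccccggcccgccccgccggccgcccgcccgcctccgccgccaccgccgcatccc
Wnt5b, upstream start site: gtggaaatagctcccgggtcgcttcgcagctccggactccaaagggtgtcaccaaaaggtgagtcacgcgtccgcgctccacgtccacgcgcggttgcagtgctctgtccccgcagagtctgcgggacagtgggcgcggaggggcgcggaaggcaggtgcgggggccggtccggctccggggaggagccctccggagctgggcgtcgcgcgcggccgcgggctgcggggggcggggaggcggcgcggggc
Wnt5b, middle start site: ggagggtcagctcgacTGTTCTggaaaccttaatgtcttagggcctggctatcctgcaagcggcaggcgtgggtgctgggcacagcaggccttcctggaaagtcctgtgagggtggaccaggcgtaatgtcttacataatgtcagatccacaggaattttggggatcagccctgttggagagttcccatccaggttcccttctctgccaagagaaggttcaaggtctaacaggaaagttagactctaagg
Wnt5b, downstream start site: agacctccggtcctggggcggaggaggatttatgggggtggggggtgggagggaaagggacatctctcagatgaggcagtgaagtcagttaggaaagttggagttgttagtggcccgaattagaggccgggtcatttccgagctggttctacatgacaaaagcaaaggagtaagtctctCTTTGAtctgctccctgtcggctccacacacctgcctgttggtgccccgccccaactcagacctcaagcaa
Capitals mark the matches to 3 motifs searched on both strands of the 250 bases before each start site. These were CTTTGA and CTTTGT, the core recognised by TCF/LEF factors, which carry the beta-catenin response, and AGAACA, the core recognised by progesterone and glucocorticoid receptors. The middle Wnt5b window held AGAACA on its other strand, where it reads TGTTCT, and the downstream one held CTTTGA. The windows of Wnt4, Wnt6, Rspo1 and the upstream Wnt5b start site held none of the 3. Of 32851 promoters of the same length, 16.1% held AGAACA and 27.6% held CTTTGA or CTTTGT. The G and C content of the 250 bases was 85.2% for Wnt4, 79.6% for Wnt6, 66.8% for Rspo1 and 75.2%, 53.2% and 55.6% for the 3 Wnt5b start sites. For Wnt4, 146 of the 250 bases overlapped an annotated exon of the gene and are not printed. The middle and downstream Wnt5b windows were the poorest in G and C.

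After filtering, 5937 Ctrl and 8826 CL cells remained, with medians of 11351 and 10337 UMIs (unique molecular identifiers, each standing for 1 captured transcript), and 18 cell barcodes stood on the lists of both libraries. Clusters were named from marker genes as hormone-responsive luminal-like (2108 Ctrl and 2685 CL cells), secretory-lineage luminal-like (2639 and 3906), basal-like (408 and 444), fibroblast-like (253 and 271), endothelial-like (54 and 61), macrophage-like (41 and 43) and T and NK-like (213 and 734). Most macrophage marker genes did not run the way the treatment label says. C1qa, C1qb, C1qc, Csf1r, Adgre1 and Ms4a7 were higher over all kept cells of the library labelled CL than over all kept Ctrl cells, for example C1qa at 22.5 against 16.2 CPM (UMIs of a gene per 1000000 UMIs of the cells in question, the unit of every level here), while Pf4 was lower, at 1.80 against 2.79 CPM. The macrophage-like share of cells was 0.691% (0.496 to 0.936) in Ctrl and 0.487% (0.353 to 0.656) in CL, with overlapping intervals, and cluster 20, which scored highest for macrophage markers but was left unnamed for its leading genes Lyz2 and S100a8, held 18 Ctrl and 211 CL cells. The basal-like share was 6.87% in Ctrl and 5.03% in CL. The CL library is therefore named by its label and not as depleted of macrophages. The paper reports lower proportions of both macrophages and basal cells under this treatment, by flow cytometry and in its single-cell data. The basal-like share given above ran the same way under the labels, whereas most macrophage marker genes did not. Whether the labels of the 2 libraries were exchanged was not tested, and an exchange would turn the sign of every CL over Ctrl ratio given here. Summed fibroblast markers were 1040 CPM over all Ctrl cells and 465 CPM over all CL cells, and basal markers 1036 and 636 CPM, so all comparisons below were made within a class. Endothelial-like cells were present in both libraries although the sort was meant to remove them.

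Each luminal, basal and stromal class led in a different set of these genes. Wnt4, Wnt5a and Wnt7b were highest in hormone-responsive luminal-like cells, Wnt5b in secretory-lineage luminal-like cells, Wnt10a in basal-like cells and Rspo1 in fibroblast-like cells. Wnt6 was led by basal-like cells narrowly beyond counting error in CL only, as fibroblast-like cells of Ctrl held about the same level. Rspo3 had too few UMIs, 3 in Ctrl and 9 in CL, for a leading class, which required at least 10 UMIs within classes of at least 30 cells per library.

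**Figure D1:**
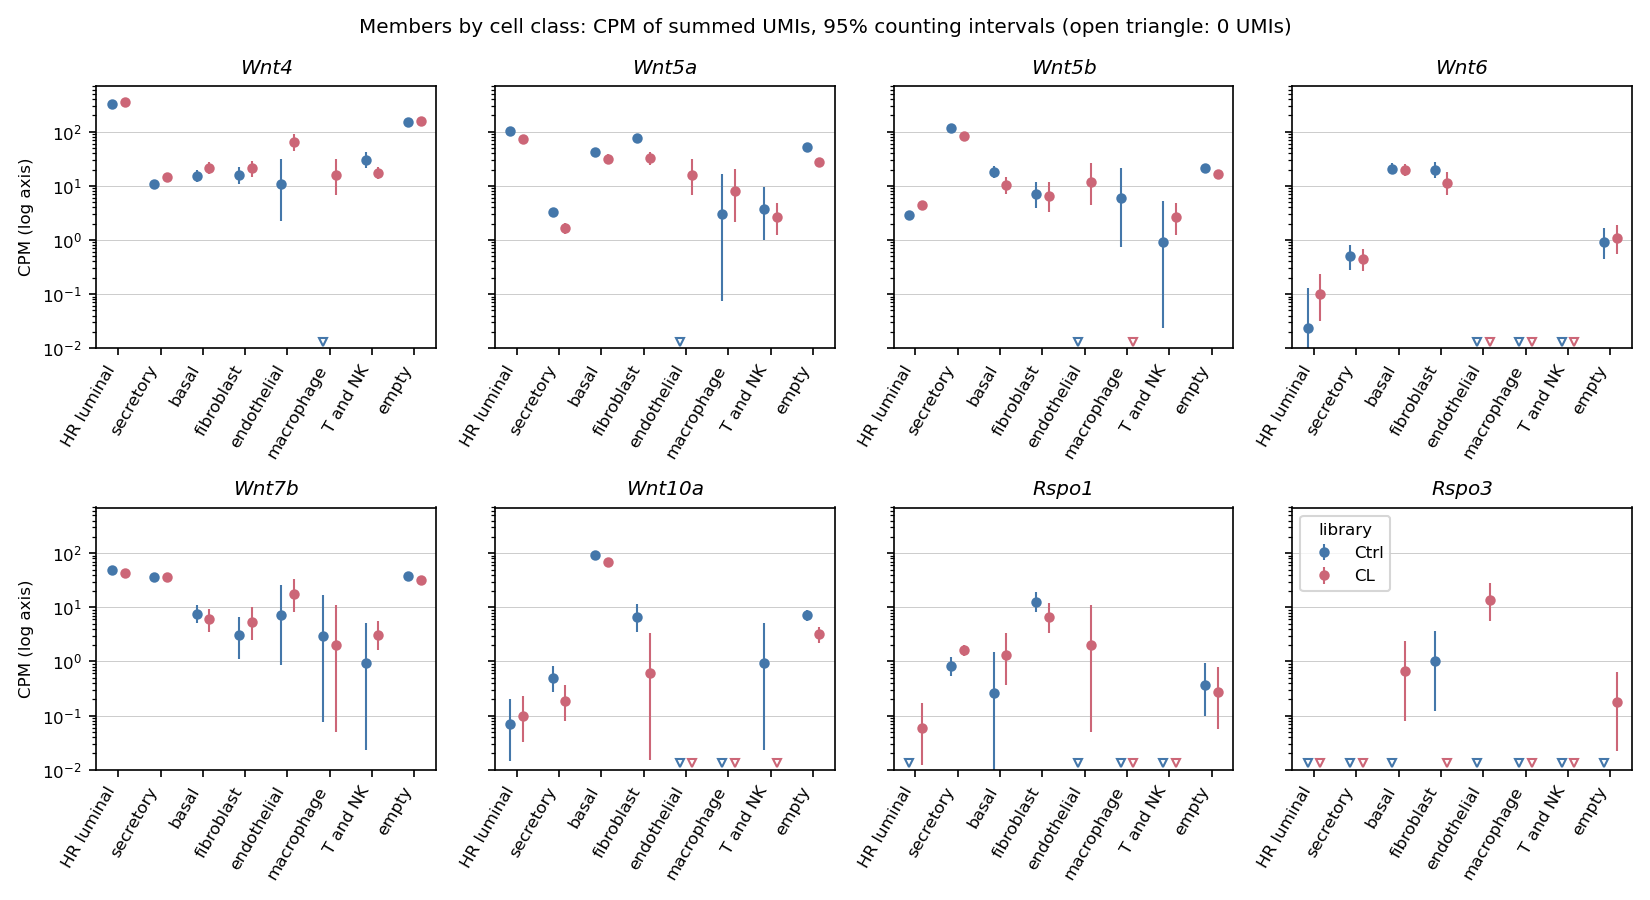
Level of each of the 8 genes (CPM, log axis) in each cell class and in empty droplets, in the Ctrl and CL libraries, with bars for the 95% Poisson interval and open triangles where no UMI was found. Wnt4 stands highest in hormone-responsive luminal-like cells, at 329 and 361 CPM, and Wnt5b in secretory-lineage luminal-like cells, at 117 and 84.0 CPM.

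Wnt4 was high in hormone-responsive luminal-like cells of both libraries and low in each of the other named classes. Its level was 329 CPM (323 to 334) in Ctrl and 361 CPM (356 to 367) in CL, from 14253 and 18327 UMIs. The log2 ratio of CL over Ctrl was 0.14 (0.11 to 0.17), so CL was higher by more than counting error and by less than the 1.5-fold set for a call. At least 1 Wnt4 UMI was found in 93.3% of these Ctrl cells and 94.4% of these CL cells, at median depths of 20017 and 17117 UMIs. With every cell thinned to 6965 UMIs, which left out 204 and 268 shallower cells, the shares were 83.7% and 87.1%. T and NK-like cells, which should lack Wnt4, had it in 12.7% and 8.17% of cells at medians of 4872 and 4458 UMIs. When cells of all classes were thinned to 1407 UMIs, the share was 36.7% and 38.4% in hormone-responsive luminal-like cells against 3.90% and 2.41% in T and NK-like cells. The Wnt4 transcript was therefore found in most cells of the class, with a median of 6 UMIs per cell in each library and a highest cell of 40 and 47.

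Empty droplets held Wnt4 at 154 and 156 CPM, so free Wnt4 RNA was present in both suspensions. An upper limit on free RNA in a class was taken from abundant droplet genes that the class hardly held. T and NK-like cells held Wnt4 above their limit, as given below, so the limits here may not cover all stray transcripts. The limit came to 3.88% and 5.92% of the Wnt4 level in hormone-responsive luminal-like cells, but to 49.7% and 39.6% in secretory-lineage luminal-like cells, where Wnt4 was at 10.7 and 14.4 CPM (log2 0.43, 0.23 to 0.63). Basal-like cells held 15.3 and 21.4 CPM, and fibroblast-like cells 15.8 and 21.1 CPM. The summed hormone-responsive markers in secretory-lineage cells were 403 CPM in Ctrl and 519 CPM in CL. Their part in the Wnt4 difference of that class was not tested. Of all Wnt4 UMIs in kept cells, 90.2% of Ctrl and 83.0% of CL lay in the hormone-responsive class, and 6.98% and 13.2% in unnamed clusters.

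Within the hormone-responsive class, Ctrl cells lay mostly in clusters 3 (868 Ctrl and 54 CL cells, led by Gpx3 and Aoc1) and 1 (700 and 814), and CL cells mostly in clusters 11 (261 and 1065), 1 and 2 (225 and 715). Wnt4 was higher in CL in each of these 4 clusters. It was 404 and 421 CPM in cluster 1 (log2 0.06, 0.01 to 0.11), 234 and 326 CPM in cluster 2 (0.48, 0.38 to 0.58), 311 and 381 CPM in cluster 3 (0.29, 0.13 to 0.45) and 304 and 347 CPM in cluster 11 (0.19, 0.11 to 0.27). Cluster 1 had the highest Wnt4 level of the 4 in both libraries. The division-led cluster 16 held Wnt4 at 130 and 182 CPM over all its 105 Ctrl and 62 CL cells. These cells were named one by one, and not all of them fell in this class.

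**Figure D2:**
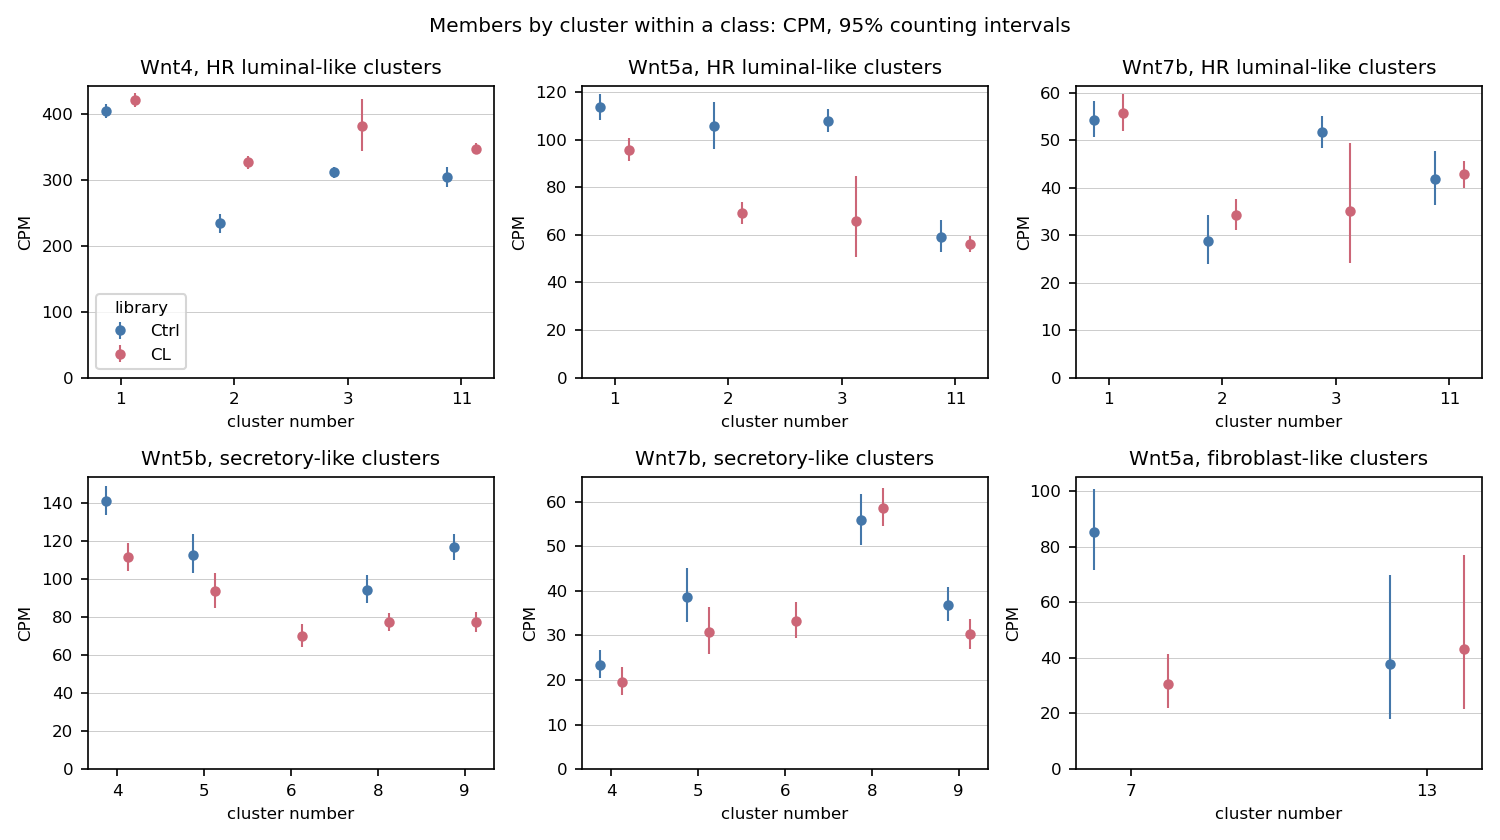
Level (CPM) of Wnt4, Wnt5a, Wnt7b and Wnt5b in the single clusters of the hormone-responsive luminal-like, secretory-lineage luminal-like and fibroblast-like classes, Ctrl and CL side by side with 95% Poisson intervals. Wnt4 is higher in CL in each of clusters 1, 2, 3 and 11, and Wnt5b is lower in CL in each of clusters 4, 5, 8 and 9.

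Wnt5a, the main ligand of beta-catenin-independent signalling through Ror2, was found in hormone-responsive luminal-like, fibroblast-like and basal-like cells and was lower in CL in each of these classes. In hormone-responsive luminal-like cells it was 104 CPM (101 to 107) in Ctrl and 73.0 CPM (70.6 to 75.4) in CL. The log2 ratio was -0.51 (-0.58 to -0.45), short of the 1.5-fold call. The share of these cells with a Wnt5a UMI was 64.6% and 52.6%, and 43.2% and 32.8% after thinning to 6965 UMIs. T and NK-like cells had one in 1.41% and 1.23% of cells. The most Wnt5a in 1 cell of the class was 58 UMIs in Ctrl and 29 in CL.

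In fibroblast-like cells Wnt5a was 76.1 CPM (149 UMIs) in Ctrl and 32.5 CPM (54 UMIs) in CL, a log2 ratio of -1.23 (-1.70 to -0.77) past the call. The summed fibroblast markers of this class were 41209 CPM in Ctrl and 27632 CPM in CL, and hormone-responsive markers in it 806 and 1353 CPM, and the part of these shifts in the fibroblast-like differences was not tested. The Wnt5a difference lay in the larger fibroblast-like cluster 7, at 85.3 and 30.5 CPM (-1.48, -2.02 to -0.97), while cluster 13 held 37.9 and 43.0 CPM from 10 and 11 UMIs. In basal-like cells it was 42.1 and 31.4 CPM, a log2 ratio of -0.42 (-0.81 to -0.05). In secretory-lineage luminal-like cells it was 3.23 and 1.66 CPM, past the call at -0.96 (-1.42 to -0.51), and free RNA could give up to 56.2% and 60.3% of that level. Hormone-responsive cells exceeded fibroblast-like cells 1.37-fold in Ctrl and 2.24-fold in CL. The order of the 2 highest classes for Wnt5a was thus the same in both libraries, whereas fibroblast-like and basal-like cells of CL did not differ beyond counting error (log2 0.05, -0.46 to 0.55).

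Among the hormone-responsive clusters, Wnt5a was 114 and 95.8 CPM in cluster 1 (-0.25, -0.35 to -0.15), 106 and 69.1 CPM in cluster 2 (-0.61, -0.78 to -0.45) and 108 and 66.03 CPM in cluster 3 (-0.71, -1.10 to -0.35). Cluster 11 held 59.1 and 56.0 CPM, with an interval that included no difference (-0.08, -0.26 to 0.11). Cluster 11 held 1065 of the 2685 CL cells of the class and 261 of the 2108 Ctrl cells, so the clusters' unequal shares move with the class ratio, and their part in it was not tested. Pgr, the progesterone receptor, was 176 and 108 CPM in the class (log2 -0.71) and was lower in CL in clusters 1, 2 and 11, at 130 and 99.8, 85.4 and 74.9, and 151 and 129 CPM. In cluster 3 Pgr was 256 CPM in both libraries.

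Wnt7b, a ligand of ducts and other branching epithelia that signals through beta-catenin, was shared by both luminal classes. It was 48.4 CPM (46.4 to 50.5) in Ctrl and 44.0 CPM (42.1 to 45.8) in CL in hormone-responsive luminal-like cells, with a log2 ratio of -0.14 (-0.23 to -0.05), which became -0.07 (-0.17 to 0.03) without clusters from nearly 1 library, an interval that included no difference. Over the secretory-lineage luminal-like class as a whole it was 36.9 and 37.0 CPM, with a log2 ratio of 0.01 (-0.11 to 0.12), while its clusters differed, as given below. The hormone-responsive class was higher by 0.39 on the log2 scale in Ctrl and by 0.25 in CL, and held 60.4% and 49.97% of all Wnt7b UMIs, against 32.2% and 36.0% in the secretory-lineage class.

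Within the luminal classes Wnt7b varied more between clusters than between libraries. It was 55.9 and 58.7 CPM in secretory-lineage cluster 8 (0.07, -0.11 to 0.26) but 23.4 and 19.6 CPM in cluster 4 (-0.26, -0.56 to 0.05). In cluster 5 it was 38.7 and 30.8 CPM (-0.33, -0.67 to 0.01). In cluster 9 it was 36.9 and 30.2 CPM (-0.29, -0.51 to -0.07), with an interval that excluded 0. Among hormone-responsive clusters it was 54.4 and 55.7 CPM in cluster 1 but 28.7 and 34.2 CPM in cluster 2, and 41.8 and 42.8 CPM in cluster 11, with intervals of the ratio that included no difference in these 3. Cluster 3 held 51.6 and 35.1 CPM (-0.56, -1.10 to -0.05), the CL value resting on 33 UMIs. Empty droplets held 38.3 and 31.4 CPM, and free RNA could give at most 6.54% and 9.76% of the level in the hormone-responsive class.

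Wnt5b, the close paralogue of Wnt5a, was found mostly in the other luminal class. In secretory-lineage luminal-like cells it was 117 CPM (114 to 121) in Ctrl and 84.0 CPM (81.3 to 86.8) in CL, from 3555 and 3644 UMIs. The log2 ratio was -0.48 (-0.55 to -0.42), beyond counting error and short of a call. Cells with a UMI made up 58.3% and 49.1% of the class, and 40.4% and 32.1% after thinning to 5211 UMIs. These cells held 90.5% and 85.4% of all Wnt5b UMIs. Their level was 40.7 and 19.0 times that of hormone-responsive luminal-like cells, and 6.46 and 8.11 times that of basal-like cells.

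The lower Wnt5b level in CL was found in each of the 4 secretory-lineage clusters with at least 30 cells in both libraries. It was 141 and 111 CPM in cluster 4 (-0.34, -0.47 to -0.22), 113 and 93.8 CPM in cluster 5 (-0.27, -0.46 to -0.07), 94.5 and 77.3 CPM in cluster 8 (-0.29, -0.44 to -0.14) and 117 and 77.3 CPM in cluster 9 (-0.59, -0.73 to -0.46). Cluster 6, led in part by MHC class II genes, held 22 Ctrl and 697 CL cells, and its CL cells were at 70.1 CPM. The class without it gave a log2 ratio of -0.43 (-0.50 to -0.36). In basal-like cells Wnt5b was 18.2 and 10.4 CPM, a log2 ratio of -0.81 (-1.47 to -0.18) past the call. In hormone-responsive luminal-like cells it was 2.88 and 4.42 CPM, a log2 ratio of 0.62 (0.29 to 0.94) past the call, at a level of which free RNA could give up to 60.1% and 51.6%. Among the hormone-responsive clusters no Wnt5b interval excluded 0, with log2 ratios of 0.04 (-0.63 to 0.71) in cluster 1, 0.62 (-0.80 to 2.37) in cluster 2 and 0.37 (-0.21 to 1.00) in cluster 11, and 48 and 0 UMIs in cluster 3. Cluster 11, with few Ctrl cells, held 151 of the 224 CL UMIs of the class. The summed secretory-lineage markers in the class were 350 CPM in Ctrl and 514 CPM in CL, and their part in the Wnt5b difference was not tested.

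**Figure D3:**
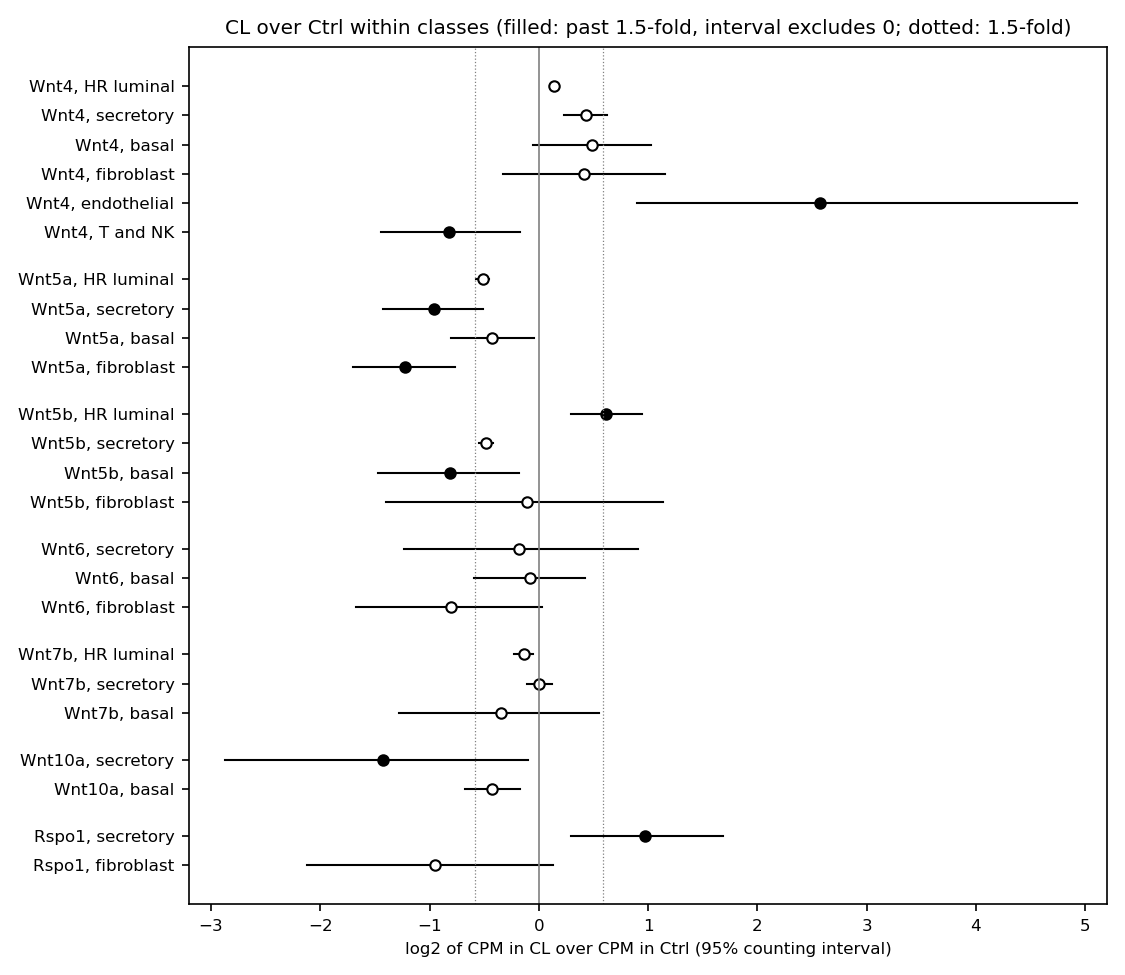
Log2 ratio of CL over Ctrl for each gene in each class with at least 20 UMIs over both libraries, with 95% intervals from exact conditional counts. Filled points are past 1.5-fold (dotted lines) with an interval that excludes 0. Wnt5a lies below 0 in all 4 classes drawn for it, and Wnt4 in fibroblast-like cells has an interval that spans 0.

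Wnt10a, a beta-catenin ligand known from skin appendages and teeth, marked basal-like cells. It was 91.9 CPM (82.5 to 102) in Ctrl and 68.5 CPM (59.4 to 78.5) in CL, from 349 and 205 UMIs, and 91.4% and 93.2% of all its UMIs lay in this class. The log2 ratio was -0.42 (-0.68 to -0.17), short of a call, but with doublets kept it was -0.70 (-0.94 to -0.46) and passed it. A Wnt10a UMI was found in 39.0% and 32.7% of basal-like cells, at medians of 8032 and 5832 UMIs. After thinning to 2061 UMIs the shares were 14.1% and 13.0%, and they differed by less than their counting intervals. Cells with 2 or more UMIs numbered 85 of 408 in Ctrl and 40 of 444 in CL, and the highest cell held 10 and 4.

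The next class for Wnt10a was fibroblast-like, with 13 UMIs in Ctrl (6.64 CPM) and 1 in CL (0.602 CPM). Basal-like cells were 13.8-fold above it in Ctrl. In secretory-lineage luminal-like cells 15 and 8 UMIs gave 0.495 and 0.184 CPM, a log2 ratio of -1.42 (-2.87 to -0.10) that passed the call at a level of which free RNA could give up to 49.9% and 62.4%. No Wnt10a UMI was found in endothelial-like or macrophage-like cells of either library.

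Wnt6, the genomic neighbour of Wnt10a, was found in basal-like and fibroblast-like cells alike. Basal-like cells held 20.8 CPM (16.5 to 25.9) in Ctrl and 19.7 CPM (15.0 to 25.4) in CL, a log2 ratio of -0.08 (-0.59 to 0.43). Fibroblast-like cells held 19.9 and 11.4 CPM from 39 and 19 UMIs, a log2 ratio of -0.80 (-1.67 to 0.03) with an interval that included no difference. In Ctrl the classes could not be put in order (log2 of basal over fibroblast 0.06, -0.51 to 0.65), and in CL basal-like cells were 1.72-fold higher (0.78, 0.02 to 1.61). The small fibroblast-like cluster 13 held 21 Wnt6 UMIs in Ctrl and 2 in CL, and 3 Ctrl cells gave 14 of the 21. The larger cluster 7 held 11.05 and 12.7 CPM. The fibroblast-like difference in Wnt6 thus rested on few cells. Basal-like Wnt6 was also uneven: 3 CL cells gave 17 of the 59 UMIs. The 9 Ctrl cells of basal-like cluster 24 gave 21 of the 79. The narrow basal-like lead in CL therefore also rested in part on few cells.

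**Figure D4:**
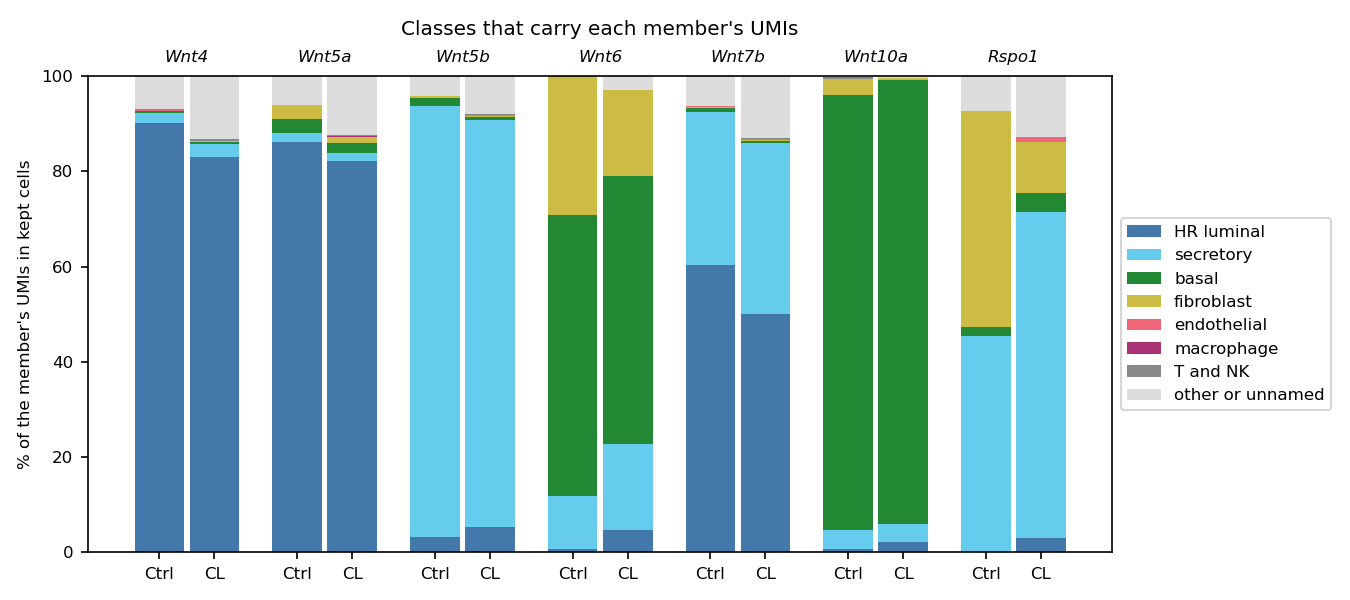
Percent of the UMIs of each gene in all kept cells that lay in each class, for Ctrl and CL, with Rspo3 left out for its few UMIs. Wnt4 and Wnt5a are mostly in hormone-responsive luminal-like cells, Wnt5b in secretory-lineage luminal-like cells, Wnt10a in basal-like cells, and Rspo1 is divided between fibroblast-like and secretory-lineage luminal-like cells.

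The R-spondins were sparse. Rspo1 was 12.8 CPM (8.27 to 18.9) in Ctrl and 6.62 CPM (3.30 to 11.8) in CL in fibroblast-like cells, from 25 and 11 UMIs, with a log2 ratio of -0.95 (-2.12 to 0.13). In secretory-lineage luminal-like cells it was 0.825 and 1.61 CPM from 25 and 70 UMIs, with a log2 ratio of 0.97 (0.29 to 1.69) past the call. The 2 classes held 45.5% each of the Ctrl UMIs, and 10.8% and 68.6% of the CL UMIs. The fibroblast-like interval thus included no difference. Over the secretory-lineage class as a whole Rspo1 was higher in CL at a low level, though not in each of its clusters.

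The Rspo1 UMIs of secretory-lineage cells were spread over 23 Ctrl and 60 CL cells, with at most 3 and 4 UMIs in 1 cell. In cluster 9 the level was 0.512 CPM (5 UMIs) and 2.22 CPM (23 UMIs), a log2 ratio of 2.12 (0.69 to 3.87). In cluster 8 it was 0.603 and 1.37 CPM with an interval that included no difference. Cluster 4 went the other way, with 6 UMIs in 824 Ctrl cells and 3 in 807 CL cells, and cluster 5 held 8 and 9 UMIs. Another 18 of the 70 CL UMIs lay in cluster 6, which held 22 Ctrl and 697 CL cells. Free RNA could give at most 1.52% and 0.612% of the class level, as empty droplets held only 4 and 3 Rspo1 UMIs. Hormone-responsive luminal-like cells held 0 and 3 Rspo1 UMIs. Of the 9 Rspo3 UMIs in CL, 7 lay in 4 endothelial-like cells (13.9 CPM), where Ctrl had 0, with an interval that reaches 13.2 CPM. Of the 3 in Ctrl, 2 lay in fibroblast-like cells.

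Macrophages have been discussed as a source of Wnt ligands in this gland, and the macrophage-like cells held few of these transcripts. Wnt6, Wnt10a, Rspo1 and Rspo3 had 0 UMIs there in both libraries, with intervals that reach 11.1 (Ctrl) and 7.30 CPM (CL). Wnt5a had 1 and 4 UMIs, Wnt5b 2 and 0, Wnt7b 1 and 1, and Wnt4 0 and 8 (15.8 CPM in CL, in 7 of 43 cells). The Lyz2-high cluster 20, with 18 Ctrl and 211 CL cells and left unnamed, held 1 and 21 Wnt4 UMIs (9.22 and 12.6 CPM), 0 and 6 Rspo1 UMIs and no Wnt10a or Rspo3. With 41 and 43 macrophage-like cells, a level of a few CPM rested on 1 or 2 UMIs and could be missed at this depth.

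Wnt4 in endothelial-like cells was 10.7 CPM (3 UMIs) in Ctrl and 63.7 CPM (32 UMIs) in CL, a log2 ratio of 2.57 (0.89 to 4.92) past the call. The CL UMIs lay in 7 cells, and 3 of these gave 68.8% of them. Transcripts of hormone-responsive luminal cells moved with Wnt4 there: Prlr was 92.9 and 540 CPM, Areg 111 and 504 CPM and Cited1 71.5 and 229 CPM, and the free RNA limit was 39.3 CPM in CL. The part of these transcripts in the Wnt4 difference was not tested. In T and NK-like cells Wnt4 was 30.4 and 17.2 CPM (33 and 66 UMIs), a log2 ratio of -0.82 (-1.44 to -0.17) past the call, where the free RNA limit was 7.75 and 8.24 CPM. The limit thus did not cover all Wnt4 in cells that should lack it, and the source of the rest was not tested.

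A gene was called within a class when CL and Ctrl differed by more than 1.5-fold and the 95% interval of the ratio excluded 0 on the log2 scale, among genes with at least 20 UMIs. In hormone-responsive luminal-like cells 1 of the 4 genes tested was called, Wnt5b, as higher, where 7.89% of all 14646 genes tested were called, 3.48% higher and 4.42% lower. In secretory-lineage luminal-like cells 3 of 7 were called, Rspo1 as higher and Wnt5a and Wnt10a as lower, where 6.6% of 13854 genes were, 2.33% higher and 4.27% lower. In basal-like cells Wnt5b was the 1 gene called of 6, as lower, where 7.44% of 10538 genes were, 2.43% higher and 5.01% lower. In fibroblast-like cells Wnt5a was the 1 called of 5, as lower, where 10.3% of 9376 genes were, 4.08% higher and 6.26% lower. Wnt4 was the only gene of the 8 that could be tested in the endothelial-like class, where 15.1% of genes were called (6.69% higher, 8.41% lower), and in the T and NK-like class, where 8% were (3.76% higher, 4.24% lower). In macrophage-like cells none of the 8 reached 20 UMIs, and 13.9% of the genes that did were called (7.4% higher, 6.55% lower). The called differences of secretory-lineage and hormone-responsive cells all concerned genes at a few CPM or less, and among the leading classes of the 7 genes that had one, none of the 7 was called, although Wnt10a passed the call with doublets kept.

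The median log2 ratio of the genes tested was -0.80 over the 5 in fibroblast-like cells, beside -0.03 over all genes tested there. It was -0.38 over 6 in basal-like cells (all genes -0.08), -0.18 over 7 in secretory-lineage cells (-0.04) and -0.00 over 4 in hormone-responsive cells (-0.02). The fibroblast-like median was the Wnt6 ratio itself, with an interval (-1.67 to 0.03) that included no difference. Of the 5 genes there, only Wnt5a had an interval that excluded 0, and Wnt4 had a ratio above 0.

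The other genes of the pathway were taken as a list of 75, ordered by role. Of the 13 other Wnt ligands, Wnt11, a beta-catenin-independent ligand, was led by basal-like cells at 186 and 117 CPM (log2 -0.67, called lower), with 85.3 and 66.2 CPM in fibroblast-like cells, and Wnt2 by fibroblast-like cells at 48.0 and 35.5 CPM. Wnt3 and Wnt3a had 0 UMIs in the 7 named classes. Of the other R-spondins, no Rspo2 UMI was found in Ctrl and 3 in CL, and Rspo4 had 1 in each. Most of the other ligands were thus at or near 0 UMIs.

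The ligand processing genes were present in the cells that held the ligands. Porcn was 17.6 and 8.60 CPM in hormone-responsive luminal-like cells (log2 -1.03, called lower) and 7.11 and 15.0 CPM in basal-like cells (1.08, called higher), so the hormone-responsive class was the higher of the 2 in Ctrl and the basal-like class in CL. Wls was highest in fibroblast-like cells at 178 and 160 CPM and lay lower in basal-like cells, at 101 and 88.5 CPM, and in hormone-responsive cells, at 74.9 and 74.6 CPM, with no call in these 3 classes.

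The R-spondin receptors Lgr4 and Lgr5 were led by basal-like cells. Lgr4 was 85.0 and 69.8 CPM in basal-like cells, 22.9 and 21.7 CPM in secretory-lineage cells and 6.20 and 6.29 CPM in hormone-responsive cells. Lgr5, a stem cell marker of several epithelia, was 36.1 and 30.1 CPM in basal-like and 0.231 and 0.375 CPM in hormone-responsive cells. Lgr6 was 33.2 and 35.8 CPM in secretory-lineage and 31.8 and 34.1 CPM in basal-like cells, with overlapping intervals in both libraries. None of the 5 genes of this group was called in the luminal or basal-like classes, and in fibroblast-like cells 1 of the 3 tested was, Lgr5, at 4.60 and 12.0 CPM.

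Among 16 receptors and co-receptors, Fzd7, Lrp6 and Ryk were highest in basal-like cells, at 90.5 and 70.5, 157 and 169, and 151 and 137 CPM, with fibroblast-like cells next for Lrp6 (141 and 99.3 CPM) and Ryk (119.6 and 111 CPM). Fzd10 was highest in hormone-responsive cells at 44.1 and 35.3 CPM, and Ror2, the receptor that pairs with Wnt5a, in fibroblast-like cells at 35.8 and 15.0 CPM (log2 -1.25, called lower). Calls among receptors were 0 of 14 tested in hormone-responsive cells, 1 lower of 16 in secretory-lineage cells (Fzd4), 3 lower of 13 in basal-like cells (Fzd8, Fzd10 and Lrp5) and 1 higher (Fzd5) and 3 lower of 13 in fibroblast-like cells (Fzd1, Fzd8 and Ror2). The shares of all genes called lower in these classes were 4.42%, 4.27%, 5.01% and 6.26%, and 4.08% were called higher in fibroblast-like cells. Wnt5a and Ror2 were thus both lower in fibroblast-like cells of CL.

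Secreted inhibitors were mostly stromal and basal. Sfrp2 was 236 and 439 CPM in fibroblast-like cells (log2 0.90, called higher) while Sfrp5 was 73.6 and 24.7 CPM (-1.58, called lower), and Sfrp1 was 149 and 150 CPM there. Wif1, which binds Wnt proteins directly, was 48.2 and 59.5 CPM in basal-like cells and had at most 7 UMIs per library in every other named class. In basal-like cells Sfrp1 was called higher (37.4 and 63.8 CPM) and Sostdc1 lower (31.8 and 11.4 CPM). In secretory-lineage cells Sfrp1 (4.09 and 8.11 CPM) and Sostdc1 (4.49 and 6.78 CPM) were called higher and Sfrp2 lower.

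**Figure D5:**
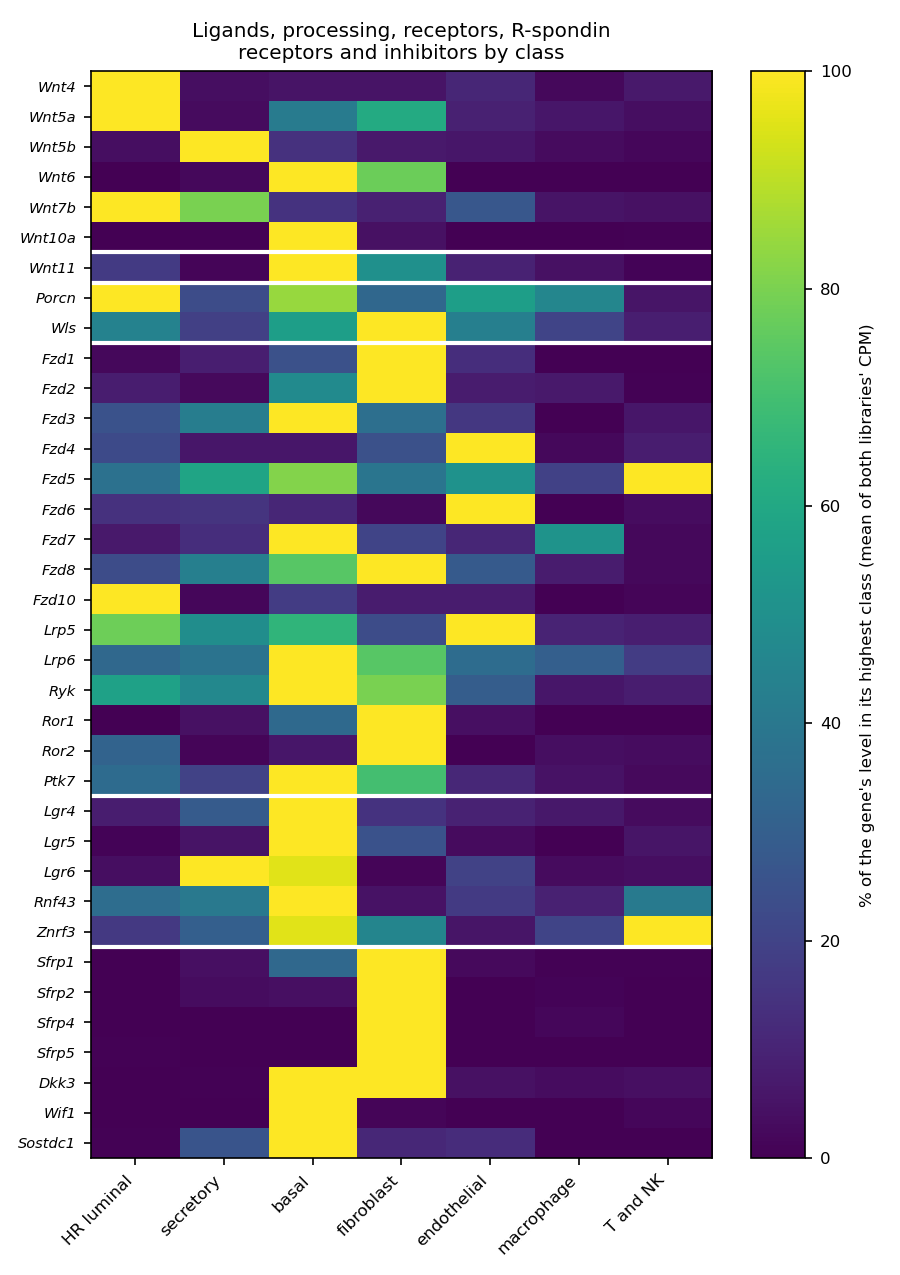
Levels of the 36 listed genes with at least 200 UMIs by class, as the mean of both libraries' CPM. Each is a percent of that gene's own highest class level, so that rows cannot be compared with each other. Lgr4, Lgr5, Fzd7 and Wif1 peak in basal-like cells, Sfrp1, Sfrp2 and Ror2 in fibroblast-like cells and Fzd10 and Porcn in hormone-responsive luminal-like cells. The mean hides that Porcn was highest in basal-like cells in CL.

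Of the listed targets of beta-catenin, the feedback genes Axin2 and Nkd1 were near 0 in the luminal classes, whereas Ccnd1 and Myc were not. Axin2, a direct target, had 7 and 5 UMIs in hormone-responsive and 5 and 14 UMIs in secretory-lineage cells, against 11.8 and 7.35 CPM in basal-like and 8.17 and 9.63 CPM in fibroblast-like cells. Its highest level was in T and NK-like cells, at 18.4 and 17.0 CPM from 20 and 65 UMIs. Nkd1, another feedback target, was 39.7 and 29.7 CPM in basal-like and 22.5 and 21.1 CPM in fibroblast-like cells and had at most 5 UMIs per library in each luminal class. Ccnd1, the cyclin D1 gene, stood at 333 and 361 CPM in the secretory-lineage class and at 223 and 247 CPM in the hormone-responsive class, against 42.1 and 39.4 CPM in basal-like cells. Myc was 44.6 and 52.5 CPM in hormone-responsive, 207 and 176 CPM in secretory-lineage and 242 and 203 CPM in basal-like cells. Nkd2 was called lower in basal-like and secretory-lineage cells, and Tcf7 and Dvl2 lower in basal-like cells. Apcdd1 was called higher in hormone-responsive and lower in fibroblast-like cells, and Tcf7l1 higher in hormone-responsive cells. Over the whole list of 75, 2 genes were called higher and 2 lower of 44 tested in hormone-responsive cells, 2 and 4 of 47 in secretory-lineage cells, 2 and 8 of 47 in basal-like cells and 4 and 6 of 46 in fibroblast-like cells. Of all genes tested in these classes, 7.89%, 6.6%, 7.44% and 10.3% were called in either direction.

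Of the hormone axis, Esr1, the oestrogen receptor, was 110 and 106 CPM in hormone-responsive cells and was called lower in fibroblast-like cells, at 51.6 and 30.7 CPM. Cited1, a transcriptional coregulator, was called higher in fibroblast-like cells, at 56.2 and 99.9 CPM, and Areg, the amphiregulin gene, lower in secretory-lineage cells, at 163 and 102 CPM. Empty droplets held Cited1 at 1150 and 1372 CPM and Areg at 1778 and 1458 CPM, and T and NK-like cells Cited1 at 63.7 and 77.9 CPM, and the part of free RNA in these calls was not tested. Pgr was the 1 gene of this group called in hormone-responsive cells. Within single clusters, as given above, Pgr differed less or not at all, and the part of the unequal cluster shares in this call was not tested. Tnfsf11, which encodes the RANKL signal known to act beside Wnt4 downstream of progesterone, had 4 and 0 UMIs there, and was found in T and NK-like cells at 24.9 and 7.06 CPM (log2 -1.82, called lower). Wnt4 and Wnt5a, both led by the hormone-responsive class, and Tnfsf11 thus lay in different classes here.

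Wnt4 and Wnt5a occurred in single hormone-responsive cells about as often together as their separate frequencies give. After thinning to 6965 UMIs, 36.6% of 1904 Ctrl cells held both, where 36.1% would hold both if they were independent, and in 2417 CL cells the shares were 29.0% and 28.6%. Pgr was found in 66.7% of the Ctrl cells with Wnt5a and 61.5% of those without, and in 49.9% and 44.7% in CL. For Wnt4 the order was the other way, with Pgr in 63.4% of the Ctrl cells with Wnt4 and 65.2% of those without, and in 46.0% and 49.2% in CL. In secretory-lineage cells Wnt5b and Wnt7b were found together in 5.66% of Ctrl cells (6.03% if independent) and 4.81% of CL cells (4.91%). These shares are a description of cells of 1 library each.

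The genes most alike in pattern were ranked by Pearson r of log2(CPM + 10) over 40 points, 21 clusters by library, among 12426 genes. The points share libraries and differ in depth, so r is a description. Wnt4 was most like Wfdc2, Gipc2 and Cd164 (r 0.972 to 0.968) and Wnt7b most like Elf3, Cecr2 and Krt19 (0.955 to 0.947). Wnt5a was most like Steap2 (0.94), Cntfr and Hs3st6, and Wnt5b most like Clic6 (0.959), Atp6v1b1 and Erbb4. Wnt10a was most like Wif1 (0.972), Col17a1 and Mir205hg, and Wnt6 most like Dkk3 (0.89), Gfra2 and Fmod. With a pseudocount of 1 in place of 10, none of the 3 genes was shared for Wnt5b and Wnt6, and 1 of 3 for Wnt10a.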

How the data were processed

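Per the processing notes the authors used Cell Ranger 2.1.1 and mm10, while the matrix headers name Cell Ranger 4. They deposited raw UMI counts for every barcode, 118743318 (Ctrl) and 155765480 (CL) in all, without normalization. The lists of cell barcodes, 7217 and 10555 long, did not index the matrix columns, so as many of the richest barcodes were taken. Cells with at least 500 genes and at most 15% mitochondrial UMIs were kept. Scrublet doublets (360 and 509) were removed, with the Ctrl threshold for both because the automatic CL threshold marked 0. Clustering used scanpy 1.11.5 (2000 genes, 30 components, 15 neighbours, Leiden resolution 1.0), and clusters were named from marker lists at a minimum of 3 markers. UMIs were summed per class and library. Intervals are exact Poisson (levels), Clopper-Pearson (shares) and conditional binomial (ratios), and cover counting error only. Ratio intervals were checked on simulated Poisson counts, the model they assume. That check cannot show how they cover real counts, which varied more between cells. PCR copies were collapsed by UMI. TMM factors (edgeR 4.0.16), cell filters, doublets, resolution, naming, denominators and free RNA (droplets of 100 to 300 UMIs) were varied. Adding the unnamed mixed luminal cluster and leaving out the division-led clusters were alternatives chosen after seeing the data. Genes and lists were chosen with earlier results of these data known. Of the pathway list, the genes named were those called in a leading class and, per role, the 1 to 3 with the highest levels there. Gene positions are from GENCODE (32235 of 32285 identifiers matched). The result for 1 macrophage marker gene is not reported here.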

Additional observations from a re-analysis of the deposited data

Results flagged for a closer look

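The direction of the CL over Ctrl ratio differed between classes for Wnt4 and for Wnt5b. The Wnt4 log2 ratio was 0.14 in hormone-responsive luminal-like, 0.43 in secretory-lineage luminal-like and 2.57 in endothelial-like cells but -0.82 in T and NK-like cells. For Wnt5b it was 0.62 in hormone-responsive luminal-like cells but -0.48 in secretory-lineage luminal-like and -0.81 in basal-like cells. With 1 library per group, these differences between classes were not tested.

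The unnamed cluster 18, which held markers of both luminal classes (131 Ctrl and 384 CL cells), was left out of the class comparisons and held 4 of the genes above their level in empty droplets. Wnt4 was 269 and 254 CPM there in Ctrl and CL, Wnt5a 72.5 and 46.4 CPM, Wnt5b 32.0 and 28.7 CPM and Wnt7b 52.8 and 49.6 CPM. Its cells had medians of 28090 and 26840 UMIs, above those of either luminal class, and the part of remaining doublets in these levels was not tested.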

How the results depend on the processing

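Of the 7 genes with a leading class, Wnt6 alone changed sign of its log2 ratio there under an alternative, running from -0.49 to 0.25, and it was not called. For Wnt4 in hormone-responsive luminal-like cells (0.14) it was 0.17 with TMM factors, 0.19 with free RNA subtracted, 0.088 without clusters from nearly 1 library and 0.080 with the unnamed mixed luminal cluster, the last chosen after seeing the data; the causes were not tested. Wnt5a (-0.51) became -0.44 with free RNA subtracted, and Wnt10a (-0.42) became -0.70 with doublets kept, which passes the call, and -0.24 when CPM values were averaged over cells. Wnt5b ran from -0.50 to -0.43, Wnt7b from -0.14 to -0.07 and Rspo1 from -0.997 to -0.657. Counts of called genes stayed within 1.5 times the reported ones (953 to 1332 hormone-responsive, 742 to 1094 secretory-lineage, 570 to 1016 basal-like, 742 to 1170 fibroblast-like). Rspo3 had no leading class, so none of its alternatives could be run, and a resolution of 0.5 left no macrophage-like class. No paired analysis was possible because each group had 1 library. Depth limits Wnt6, Rspo1, Rspo3 and the macrophage-like and endothelial-like classes, which held few UMIs or cells.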
